A study of Homo sapiens with 6 samples.

Results

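Aminoacyl-tRNA synthetases were followed in HEK293 cells after transfection with a BAHD1 siRNA. Members were found by symbol in the platform annotation: probe sets annotated to a single gene named with 1 letter and ARS, with or without a final 1 or 2, or named EPRS1, FARSA or FARSB. This gave 67 probe sets of 32 genes, out of 54675 probe sets and 19775 singly annotated genes on the array. Of the 32 genes, 15 encode cytosolic enzymes or subunits, 15 encode mitochondrial enzymes, and GARS1 and KARS1 encode both forms of the glycyl and lysyl enzymes. The probe sets of MARS1, QARS1 and TARS2 carry a microRNA gene in the annotation as well and fall outside the rule. Their scaffold partners AIMP1, AIMP2 and EEF1E1 were left out by the rule.

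Each synthetase attaches one amino acid to its matching transfer RNAs, at the cost of ATP, and so sets the link between codon and amino acid. Human cells keep largely separate nuclear-encoded sets for the cytosol and for mitochondria, where the charged tRNAs serve the few proteins made from mitochondrial DNA. The enzymes fall into class I and class II, which have unrelated catalytic folds, and several cytosolic ones sit together in the multisynthetase complex. Many cytosolic synthetase genes are known targets of ATF4, the transcription factor induced when amino acids run short.

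The study compared HEK293 cells, an established line derived from human embryonic kidney, grown in DMEM with fetal calf serum and treated with Lipofectamine RNAiMAX and either a control siRNA or a BAHD1 siRNA for 72 h. BAHD1 is a chromatin protein known for its part in heterochromatin formation. There were 3 biological replicates per group, with one array per replicate. Whether they were separate transfections is not said beyond the word biological, so p-values measure the spread between these 6 samples.

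The arrays were on one scale, with a median signal of 15.9 to 19.5. The signal of BAHD1 itself, from 1 probe set, was 62.9, 55.7 and 46.7 in control replicates 1 to 3 and 36.6, 46.8 and 41.2 in BAHD1 siRNA replicates 1 to 3. Its mean was 76.0% of control, the groups overlapped, and the difference did not pass the test (log2 fold change -0.40 ± 0.15 SE, limma adjusted p = 0.251). Signals of 7 genes taken as HEK293 markers summed to between 4466.5 and 4915.4 in control cells and between 4126.9 and 4424.6 in BAHD1 siRNA cells. In the intensity-trend fit explained below, 3 of the 6 tested passed, VIM lower (log2 fold change -0.32) and NEFM and NEFL higher (0.58 and 0.37). VIM alone had 2652.6 to 3679.3 and makes up most of the HEK293 marker sums. KRT8 and PAX2 were dim, at 26.2 to 40.7 and 24.3 to 46.1. LHX1, 1 of the 7, stayed at 1.2 to 24.7 and was not kept for testing. The brightest probe sets of 9 blood, liver, fibroblast and endothelial markers did not exceed 23.1 on any array and summed to 80.0 to 93.1 and 65.7 to 89.8. Poly-A RNAs of bacterial genes, which serve as labelling controls, gave higher mean signals after BAHD1 siRNA in 24 of their 24 probe sets, with log2 means of 9.21 ± 0.17 (SD, n = 3) against 8.63 ± 0.12 (SD, n = 3). The part of these marker and labelling differences in the results below was not tested.

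Among the synthetases, a fall was called for 2 mitochondrial enzymes, PARS2 and RARS2, in one of the fits used, and for none in the other. For RARS2 the call was at the dimmest of its 3 tested probe sets only. Testing required a signal over 17.9, which is the median once control probe sets are set aside, on at least 3 of the 6 arrays. This left 55 of the 67 synthetase probe sets, with at least 1 for each of the 32 genes, and none was kept through one group alone. Limma with one variance prior called 0 of the 55 at an adjusted p under 0.05, as it called 0% of all 27458 tested probe sets. The smallest adjusted p among members was 0.132. With a prior variance that follows the mean signal, called the intensity-trend fit here, 2 of the 55 passed, both lower, which is 3.64% of them against 4.45% of all probe sets (2.28% called lower). The members' share of calls was therefore no higher than the share over the whole array. Below, fell is used only of these 2, and only for the intensity-trend fit.

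More members differed by small amounts than were called. At an unadjusted p under 0.05 in the fit with one prior there were 11 of the 55, or 20.0% against 17.6% of all probe sets, and 9 of the 11 were lower, or 16.4% against 7.86%. The signals of the groups did not overlap in 17 of the 55, 30.9% against 25.6% of all probe sets. In 14 of these 17 the BAHD1 siRNA arrays were lower, 25.5% against 12.2%. Members that share a gene are not independent, and the 14 come from 10 genes.

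**Figure D1:**
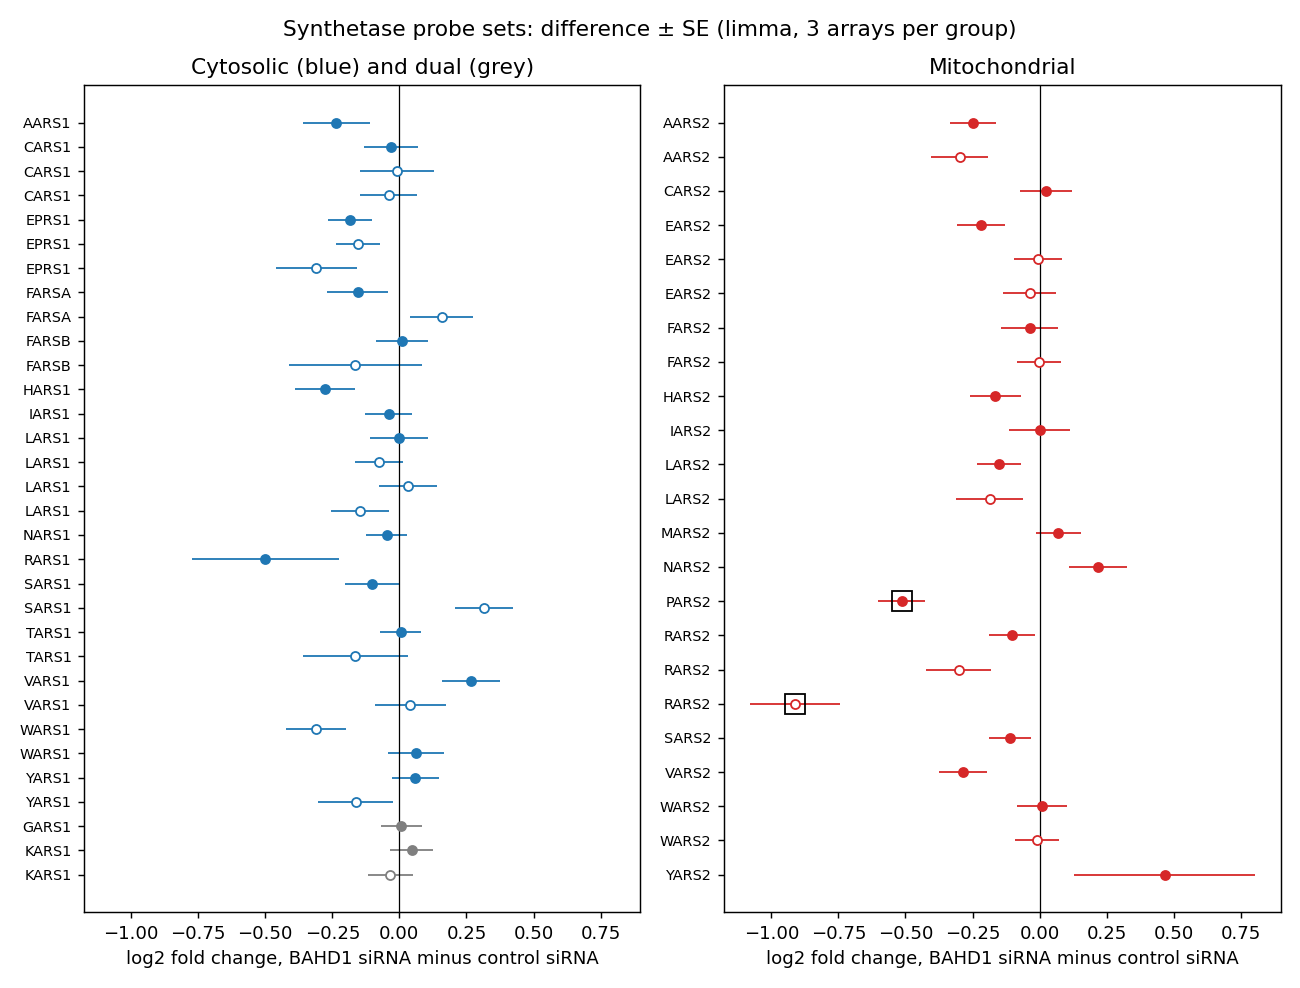
Log2 fold change of the 55 tested synthetase probe sets (x axis, BAHD1 siRNA minus control siRNA, error bars SE from limma with one prior, 3 arrays per group), with cytosolic genes in blue, GARS1 and KARS1 in grey and mitochondrial genes in red. Filled symbols mark each gene's brightest probe set and squares the 2 probe sets called in the intensity-trend fit, PARS2 at -0.51 and 1 of the 3 of RARS2 at -0.91.

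PARS2, which charges mitochondrial tRNA with proline, was the lowest of all 32 genes when each was read from its brightest probe set. Its signals were 129.3, 113.4 and 123.2 in the control replicates and 86.5, 84.4 and 84.0 in the BAHD1 siRNA replicates. All BAHD1 siRNA values lay below all control values, and they differed little among themselves. On the log2 scale the control cells averaged 6.94 ± 0.10 (SD, n = 3) and the BAHD1 siRNA cells 6.43 ± 0.02 (SD, n = 3). PARS2 thus fell to 70.0% of control, a log2 fold change of -0.51. The 95% interval was -0.72 to -0.30 in the fit with one prior (SE 0.09). In the intensity-trend fit the SE was larger, at 0.12. The limma adjusted p of PARS2 was 0.0327 by the intensity-trend fit, against 0.132 with one prior. In bulk RNA, fewer cells that express a gene and less of its RNA per cell cannot be told apart. The direction was kept without any single array (-0.57 to -0.47), but in all 6 of those fits the call was lost (intensity-trend adjusted p 0.0501 to 0.108). It was also lost when dim probe sets were not filtered (0.0771). PARS2 has 1 probe set on the array, so no second reading of the gene was at hand.

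The sequence before the PARS2 start site is shown because this gene gave the clearest single difference. It lies at chr1:54764524-54764773 on the minus strand of GRCh38.p14 and was taken from RefSeq, with capitals marking the 2 matches to the ETS-type motif ACTTCCG on either strand.
PARS2: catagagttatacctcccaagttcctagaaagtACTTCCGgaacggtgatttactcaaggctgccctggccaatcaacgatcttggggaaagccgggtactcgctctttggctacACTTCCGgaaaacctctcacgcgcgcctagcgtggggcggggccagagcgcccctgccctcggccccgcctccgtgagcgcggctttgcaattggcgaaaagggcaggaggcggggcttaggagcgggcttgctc
RARS2, the other gene with a called probe set, has the same letters 13 bases after its start site, at chr6:87589957-87589986 on the minus strand.
RARS2: gactgcggcgcACTTCCGtagaggtggaca
A promoter window of 300 bases, 250 before to 50 after the start, was found for 27 of the 32 genes, in some with a further start site. This motif, chosen after the sequences and the results had been seen, was in the windows of 9 of the 27 genes (33.3%): CARS1, EARS2, HARS1, HARS2, NARS1, PARS2, RARS2, TARS1 and WARS1. Over all genes with a window the share was 8.18%. HARS1 and HARS2 share 184 bases of their windows and hold the same 2 matches, so they are not independent entries among the 9. The median log2 fold change was -0.10 in the 9 genes and -0.02 in the other 18, and the ranges overlapped (-0.51 to 0.06 and -0.50 to 0.47). A match to these letters is a description of the window, not a site of binding.

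RARS2, the mitochondrial arginyl-tRNA synthetase, was read by 6 probe sets, of which 3 were bright enough to be tested. The called one was the dimmest of the 3, with signals of 47.7, 53.9 and 59.5 in control cells and 29.9, 32.8 and 22.2 in BAHD1 siRNA cells. The groups did not overlap. RARS2 fell by 0.91 on the log2 scale at this probe set, to 53.1% of control, with limma adjusted p values of 0.0333 (intensity-trend fit) and 0.137 (one prior). The 95% interval was -1.32 to -0.50 with one prior (SE 0.17), and the SE was 0.21 in the intensity-trend fit. Without single arrays the log2 fold change ran from -1.03 to -0.75. Only without BAHD1 siRNA replicate 1 was it called (adjusted p 0.0441 to 0.121 over the 6 intensity-trend fits). On the log2(signal + 16) scale, which weighs dim signals less, it was -0.66.

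The brighter probe sets of RARS2 were lower by less. The middle one had signals of 393.1, 360.3 and 359.5 against 351.3, 284.1 and 271.7, a log2 fold change of -0.30 ± 0.12 (SE, n = 3) that was not called (adjusted p = 0.108 in the intensity-trend fit and 0.28 with one prior). The brightest had 480.1, 506.8 and 487.9 against 468.6, 477.0 and 428.9, or -0.10 ± 0.08. All 3 were lower with no overlap between groups. Their sizes were not alike: the log2 fold change of the dimmest less that of the brightest was -0.81, with no test, since that probe set was singled out by its size. The position of each probe set within the transcripts was not examined. The size for RARS2 therefore runs from -0.91 to -0.10 with the probe set.

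**Figure D2:**
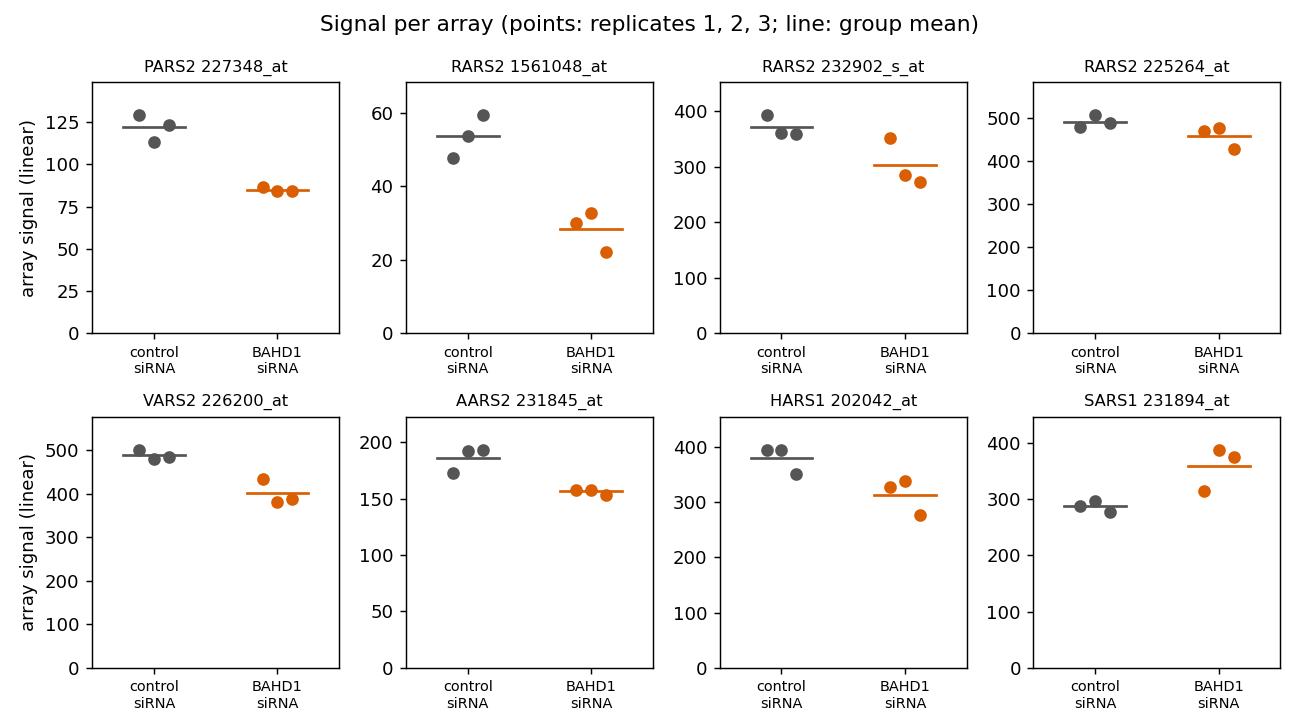
Array signal on a linear axis from 0 for 8 synthetase probe sets, with points for replicates 1, 2 and 3 from left to right in each group and lines for group means. In PARS2, all 3 RARS2 probe sets, VARS2, AARS2 and HARS1 the BAHD1 siRNA points lie below every control point, and in the SARS1 panel they lie above.

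Other mitochondrial enzymes were lower without passing. VARS2, for valine, came closest, with 500.6, 478.7 and 483.8 in control cells and 434.2, 379.9 and 388.0 in BAHD1 siRNA cells. The groups were apart, at a log2 fold change of -0.29 ± 0.09 (SE, n = 3; adjusted p = 0.0562 in the intensity-trend fit and 0.206 with one prior). AARS2, for alanine, was read alike by its 2 probe sets. The brighter had 173.1, 192.6 and 193.3 against 157.9, 157.9 and 153.4, and the dimmer 115.3, 122.9 and 136.7 against 98.4, 110.4 and 95.6. Both kept the groups apart, at -0.25 ± 0.09 and -0.30 ± 0.11 (intensity-trend adjusted p 0.17 and 0.187).

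EARS2, the glutamyl enzyme of mitochondria, differed between its probe sets. The brightest had 206.3, 208.8 and 207.4 against 194.4, 173.0 and 167.8, a log2 fold change of -0.22 ± 0.09. The remaining 2 tested were at -0.01 and -0.04 with overlapping groups. For LARS2 (leucine) the values were -0.15 and -0.19, for HARS2 (histidine) -0.16 and for SARS2 (serine) -0.11. The groups did not overlap for the brighter LARS2 probe set and for SARS2, and none of these passed.

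The remaining mitochondrial enzymes were near their control level or higher. CARS2, FARS2, IARS2, MARS2 and WARS2 had log2 fold changes of 0.02, -0.04, -0.00, 0.07 and 0.01 at their brightest probe sets. NARS2, for asparagine, had 557.5, 490.1 and 592.6 in control cells and 688.2, 614.7 and 601.7 in BAHD1 siRNA cells. It was the only mitochondrial member tested with every BAHD1 siRNA value above every control value, at 0.22 ± 0.11 (adjusted p = 0.171 in the intensity-trend fit). YARS2, for tyrosine, had the highest value of all 32 genes, 0.47, and also the widest spread. Its signals of 253.2, 211.9 and 150.4 in control cells and 380.3, 173.6 and 323.8 in BAHD1 siRNA cells overlapped, and its SE was 0.34.

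By gene, 10 of the 15 mitochondrial enzymes were lower and 5 higher, with a median log2 fold change of -0.10. Over all 12529 genes tested, 45.6% were lower and the median was 0.02. Of 23 tested mitochondrial probe sets, 11 kept the groups apart, 10 of them lower and from 7 genes. These are 47.8% and 43.5% of the 23, against 25.6% and 12.2% of all probe sets. In the intensity-trend fit 2 of the 23 were called, 8.70% against 4.45% of all, and 0 with one prior. At an unadjusted p under 0.05 with one prior there were 7, or 30.4% against 17.6% of all. These 7 were lower and came from 5 genes. In each array the median difference of the 15 genes from their own control means was 0.01, 0.02 and -0.01 in control replicates and -0.07, -0.12 and -0.12 in BAHD1 siRNA replicates. These medians did not overlap between the groups. The median stayed below 0 under every normalisation tried (-0.13 to -0.08). Without BAHD1 siRNA replicate 3 it was -0.06, a move of over 1.5 times.

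Of the 15 cytosolic genes 10 were lower and 5 higher, with a median of -0.04, and 0 of their 29 tested probe sets were called in either limma fit, against 4.45% of all probe sets in the intensity-trend fit. At an unadjusted p under 0.05 with one prior there were 4, or 13.8% against 17.6% of all. None of this tests the cytosolic set against the mitochondrial one. The array medians overlapped, at 0.07, -0.00 and -0.07 in control replicates and -0.02, -0.09 and -0.03 in BAHD1 siRNA replicates. After cyclic loess normalisation, which removes shifts that follow the signal and was added after the data were seen, the cytosolic median was 0.02 and 6 of the 15 were lower. Bright genes leaned lower in the whole data set: with genes split by signal into 4 equal bins, the brightest bin had a median of -0.03 with 57.5% lower, and the dimmest 0.16 with 32.9% lower. Of the 15 cytosolic genes 13 lie in the brightest bin, against 5 of the 15 mitochondrial ones, with 7 in the next.

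HARS1, for histidine, had 393.8, 395.0 and 350.3 in control cells and 327.0, 338.0 and 276.8 in BAHD1 siRNA cells. The groups were apart at a log2 fold change of -0.28 ± 0.11 (SE, n = 3), which did not pass (adjusted p = 0.116 in the intensity-trend fit and 0.28 with one prior). EPRS1, which joins the glutamyl and prolyl enzymes in one protein, was lower in all 3 of its probe sets, at -0.18, -0.15 and -0.31. The brightest had 1835.2, 1747.0 and 1668.5 against 1567.4, 1482.7 and 1570.2, with no overlap (adjusted p = 0.129 in the intensity-trend fit). The middle one had 1393.2, 1420.3 and 1491.4 against 1317.6, 1233.0 and 1320.7, also apart, and the dimmest had 807.7, 653.0 and 698.7 against 696.6, 539.0 and 514.9, with overlap. AARS1, for alanine, was at -0.24 ± 0.12, with 2014.1, 2013.4 and 1678.9 against 1815.6, 1557.6 and 1475.3, and its groups overlapped.

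RARS1, for arginine, had a large mean difference that rested on the choice of arrays. Its signals were 707.6, 1308.9 and 1446.1 in control cells and 743.7, 762.6 and 834.3 in BAHD1 siRNA cells, so that control replicate 1 lay below all BAHD1 siRNA values. The log2 fold change was -0.50 ± 0.27 (adjusted p = 0.317 in the intensity-trend fit). Without control replicate 1 it was -0.82 with an adjusted p of 0.00749, and without control replicate 3 it was -0.30.

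For SARS1, WARS1 and FARSA the probe sets of one gene pointed in opposite directions. The dimmer SARS1 probe set, for the seryl enzyme, had 287.5, 296.1 and 277.3 against 314.5, 387.4 and 374.5, all higher, at 0.32 ± 0.11 (adjusted p = 0.0737 in the intensity-trend fit). The bright one had 3943.9, 3528.4 and 3259.9 against 3405.6, 3221.1 and 3340.3, at -0.10 with overlap. In WARS1, the tryptophanyl enzyme known to be induced by interferon, one probe set had 988.4, 816.9 and 971.2 against 784.5, 688.1 and 761.5, all lower, at -0.31 ± 0.11 (adjusted p = 0.0554 in the intensity-trend fit). The other had 876.6, 751.3 and 811.1 against 822.9, 797.6 and 925.8, at 0.06. FARSA, a subunit of the phenylalanyl enzyme, had 678.2, 571.3 and 531.6 against 548.3, 527.8 and 515.8 at one probe set (-0.15) and 417.9, 385.5 and 401.5 against 517.9, 431.1 and 402.6 at the other (0.16), both with overlap. These 3 genes were picked for their opposed probe sets, so the gaps are a description. Of 17 genes with more than 1 tested probe set, 9 had both signs, 7 were lower throughout and 1, VARS1, was higher throughout.

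VARS1, for valine, had 254.2, 257.5 and 231.0 in control cells and 299.9, 268.2 and 328.7 in BAHD1 siRNA cells at its brighter probe set. The groups were apart at 0.27 ± 0.11, which was not called (adjusted p = 0.134 in the intensity-trend fit and 0.278 with one prior). The dimmer one was at 0.04. The other cytosolic genes had small values at their brightest probe sets: CARS1 -0.03, FARSB 0.01, IARS1 -0.04, LARS1 -0.00, NARS1 -0.05, TARS1 0.01 and YARS1 0.06. GARS1 and KARS1, which serve both compartments, were at 0.01 and 0.05, and GARS1 varied little, from 2618.3 to 2687.8 in control cells and 2613.6 to 2693.7 in BAHD1 siRNA cells. GARS1 was at -0.02 when array medians were centred. In 25 of the 32 genes the 95% interval of the brightest probe set, with one prior, lay within 0.5 log2 units of no change. Larger changes of those readings would fall outside it.

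Members of the multisynthetase complex did not stand out. EPRS1, IARS1, LARS1, RARS1 and KARS1 were the 5 measured by rule, 4 lower and 1 higher with a median of -0.04, and the 11 cytosolic genes outside it had a median of -0.03. Among all members the 16 class I genes had a median of -0.00 and the 15 class II genes -0.10, with EPRS1, which holds both classes, left out. The jointly annotated probe sets of complex members QARS1 and MARS1, outside the rule, were at -0.19 for QARS1 and at -0.18, -0.07 and -0.07 for MARS1, and that of mitochondrial TARS2 was at -0.17. None of these was called in either fit.

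The cytosolic and the mitochondrial enzyme for the same amino acid were set side by side in 15 pairings, with EPRS1 and FARS2 each used more than once. Each gene was read from its brightest probe set only. In 9 both were lower, in 2 both were higher, and the mitochondrial enzyme had the lower value in 8. The widest gap was for valine, where the value of VARS2 less that of VARS1 was -0.55 (-0.29 against 0.27), without overlap between groups. At the dimmer VARS1 probe set (0.04) the valine gap would be narrower. The gaps for tyrosine (0.41) and arginine (0.40) came next, with overlap. The arginine gap used RARS2 at -0.10 against RARS1 at -0.50. With the called RARS2 probe set, at -0.91 and so below RARS1, that gap would have the opposite sign. PARS2 less EPRS1, which charges cytosolic proline tRNA, gave -0.33, and NARS2 less NARS1 gave 0.26, again without overlap. FARS2 less FARSA (0.12) and CARS2 less CARS1 (0.05) were also apart. The FARSA probe set used was at -0.15. Its other one, at 0.16, lay above FARS2 at -0.04, so the sign of that gap depends on the probe set. Of the pairings without overlap at the brightest probe sets, the mitochondrial enzyme was lower in 2 and higher in 3. The share without overlap among other pairs of genes was not worked out. Each pairing without overlap gave p = 0.1 in an exact two-sided permutation test, the least that 3 arrays against 3 can give. After Benjamini-Hochberg adjustment over the 15 pairings this was 0.3. No pairing could have passed 0.05 in this test, so it decides nothing about them.

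**Figure D3:**
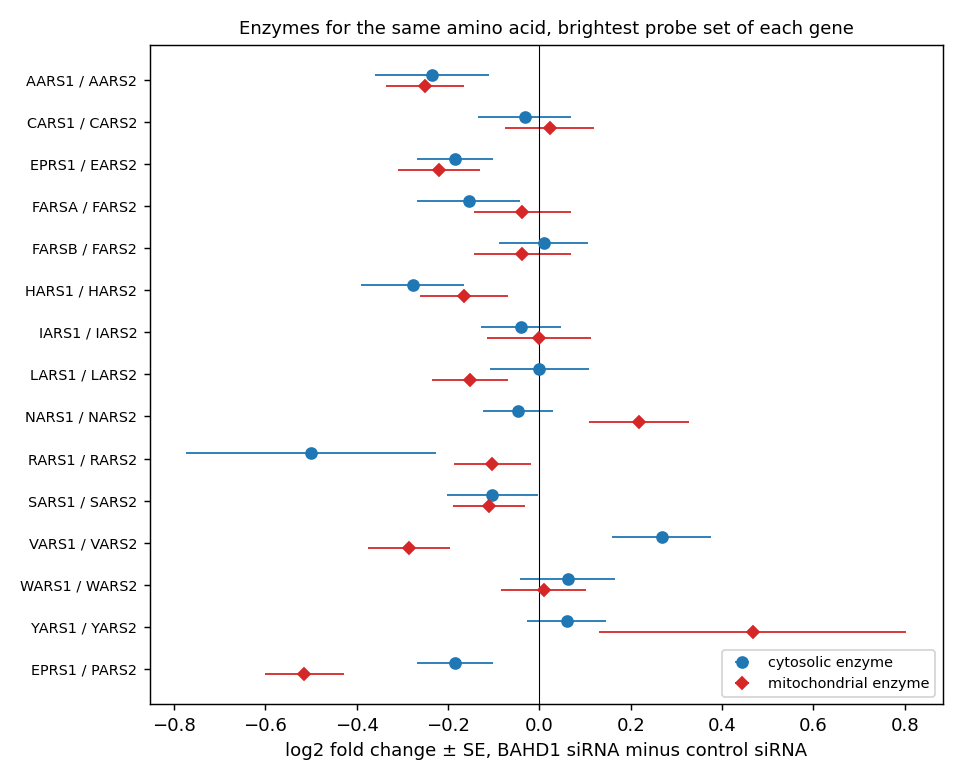
Log2 fold change ± SE (limma with one prior, 3 arrays per group) of the cytosolic (blue circles) and mitochondrial (red diamonds) enzyme for each shared amino acid, each read from its brightest probe set. VARS1 and VARS2 lie on opposite sides of 0, at 0.27 and -0.29, whereas AARS1 and AARS2 lie close together at -0.24 and -0.25.

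HARS1 and HARS2 are divergent neighbours, and the short stretch between their start sites is shown because it is common to both promoters. It covers chr5:140691371-140691454 of GRCh38.p14, given on the plus strand, on which HARS2 is read, with the 2 matches to ACTTCCG or its complement in capitals.
HARS1 and HARS2: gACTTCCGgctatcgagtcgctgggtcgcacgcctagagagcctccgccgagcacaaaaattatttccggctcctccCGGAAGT
Both genes had lower mean signals in BAHD1 siRNA cells. HARS2 had 259.8, 263.0 and 229.1 against 235.7, 221.4 and 212.7, with overlap, at -0.16 ± 0.10, beside -0.28 ± 0.11 for HARS1.

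Some members share a promoter motif that the membership rule did not use. The letters TGATGNAA on either strand, the core of the composite element bound by ATF4 with C/EBP proteins, were in the windows of 7 of the 27 genes, or 25.9%, against 4.46% of all genes with a window. Of the 7, 6 are cytosolic or dual genes, out of 14 such genes with a window. The 30 bases around each match are shown because they carry this shared feature, with the match in capitals, from RefSeq and GRCh38.p14, each on the strand of its gene.
AARS1, chr16:70289675-70289704: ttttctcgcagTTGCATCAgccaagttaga
CARS1, chr11:3057407-3057436: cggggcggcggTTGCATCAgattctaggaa
GARS1, chr7:30594834-30594863: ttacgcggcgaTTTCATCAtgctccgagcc
IARS1, chr9:92293692-92293721: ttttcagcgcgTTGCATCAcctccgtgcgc
NARS1, chr18:57621804-57621833: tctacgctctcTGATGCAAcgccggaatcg
TARS1, chr5:33440956-33440985: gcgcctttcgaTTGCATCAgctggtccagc
YARS2, chr12:32756076-32756105: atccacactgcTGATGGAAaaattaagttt
Their log2 fold changes were -0.24 for AARS1, -0.03 for CARS1, 0.01 for GARS1, -0.04 for IARS1, -0.05 for NARS1, 0.01 for TARS1 and 0.47 for YARS2. The median was -0.03, against -0.10 for the 20 genes without these letters in the window, and none of the 7 was called in either fit. Another motif, GCATGCGC, the core bound by the respiratory gene regulator NRF1, was in 2 of the 27 genes (MARS2 and YARS2), 7.41% against 3.68% of all.

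Genes that act with the synthetases were read from a list of 47 symbols, of which 41 were measured. TARSL2, counted as not measured, is an older symbol of TARS3, which was measured. In the intensity-trend fit 1 of the 41 was called and in the limma fit with one prior 0 were (3 at an unadjusted p under 0.05), fewer for their number than the 4.45% and 17.6% of all probe sets, with 21 lower, 20 higher and a median of -0.00. Of the 17 genes of the GCN2 and ATF4 arm, all measured, 8 were lower and 9 higher, with a median of 0.01. The cystine transporter gene SLC7A11 was the one called, with 731.9, 715.7 and 669.2 against 840.6, 841.4 and 902.8, at 0.29 ± 0.08 (adjusted p = 0.036 in the intensity-trend fit and 0.192 with one prior). ATF4 was at -0.10, its target ASNS, which makes asparagine, at -0.00, DDIT3 at -0.02, and the amino acid sensing kinase gene EIF2AK4 at 0.01. None of these 4 had groups apart. ATF3, a stress-induced repressor, had 1120.3, 1252.4 and 1212.5 against 1129.6, 937.0 and 1079.7, at -0.19 with overlap. PSAT1, of serine synthesis, had 4141.5, 4420.3 and 4213.6 against 4553.7, 4801.2 and 4795.3, apart and higher at 0.15, and neither passed (intensity-trend adjusted p 0.189 and 0.207).

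The other entries at an unadjusted p under 0.05 with one prior both belong to mitochondrial tRNA charging. GATB, a subunit of the amidotransferase that turns glutamyl-tRNA made by EARS2 into glutaminyl-tRNA, had 118.1, 132.8 and 147.6 against 103.4, 101.6 and 105.9. The groups were apart at -0.35 ± 0.11 (adjusted p = 0.118 in the intensity-trend fit). MTFMT, which formylates mitochondrial methionyl-tRNA, had 147.9, 129.7 and 133.4 against 114.8, 106.5 and 96.2, also apart, at -0.37 ± 0.10 (adjusted p = 0.0979). The amidotransferase partners QRSL1 and GATC were at -0.09 and 0.10. AIMP1, the scaffold gene measured, was at 0.02, and the threonyl enzyme gene TARS3 at 0.06. The 5 measured genes that deliver charged tRNA to the ribosome ran from -0.13 to 0.05 and the 4 of the selenocysteinyl-tRNA route from 0.03 to 0.15, with none called.

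**Figure D4:**
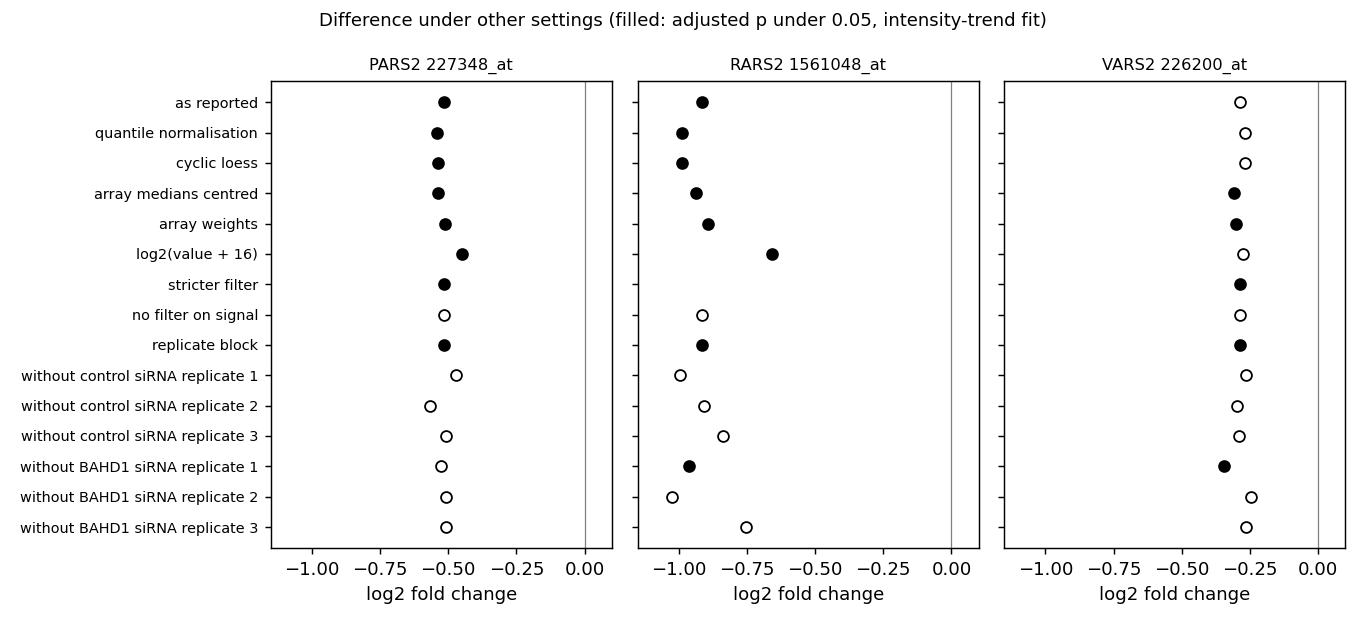
Log2 fold change of PARS2, the called RARS2 probe set and VARS2 (x axis) as reported and under other settings (rows), filled where the adjusted p of the intensity-trend fit was under 0.05. All values lie below 0, at -0.57 to -0.45 for PARS2, and the row for RARS2 under the stricter filter is empty because that probe set was too dim. PARS2 passed the stricter filter through its control arrays alone, so its filled symbol in that row lends no support.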

How the data were processed

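One array was hybridised per sample with biotin-labelled target made by oligo(dT)-primed one-cycle amplification, per the labels' protocols. The table deposited by the authors holds one linear intensity per probe set, while GCOS and GCRMA are named, with no role or version, per the submitters' processing notes. Trimmed by 2% at both ends, every array averaged 100.01 in linear signal. Which of these tools made the values is not known. Detection calls were not used here, so dim signals have no stated background.

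Values were analysed as log2(signal + 1) in R 4.3.3 with limma 3.58.1 (lmFit, eBayes), leaving out 62 control probe sets, with Benjamini-Hochberg adjustment over all 27458 tested. The intensity-trend fit used eBayes with trend and robust. The scripts were tested on simulated arrays. Each gene was represented by its brightest tested probe set over all 6 arrays. All 32 member symbols matched RefSeq (GRCh38.p14) by gene identifier. Genes named are all members, with array values for those called or at an unadjusted p under 0.05 in either fit, or with probe sets most opposed in sign, plus YARS2, RARS1, HARS2 and GARS1, chosen after their values were seen. Members, lists and fits were chosen with earlier results of these data known. No pair of arrays agreed exactly in more than 1.08% of probe sets. Same-numbered replicates did not deviate together (correlations 0.01, 0.01 and 0.02). The number of arrays limits precision. Adding 1 to each signal draws the fold changes of dim probe sets towards no change. Whether the fold changes of dim probe sets are too small or too large here was not tested.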

Additional observations from a re-analysis of the deposited data

Results flagged for a closer look

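The bacterial poly-A control probe sets, which enter no comparison of the synthetases, were higher in BAHD1 siRNA arrays by a mean of 0.59 on the log2 scale, with array means of 9.02 to 9.32 against 8.55 to 8.76 in control arrays. A probe set of EARS2 too dim to be tested had signals of 15.0, 7.5 and 8.0 in control arrays and 19.9, 17.0 and 17.8 in BAHD1 siRNA arrays, all higher, at a log2 difference of 0.84. The brightest EARS2 probe set was lower, at -0.22. Of the 12 synthetase probe sets left out as dim, 4 belong to CARS2 and 3 to RARS2, and their signals ran from 0.4 to 23.1.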

How the results depend on the processing

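In the intensity-trend fit 2 synthetase probe sets were called. The number was 0 with no filter on signal, 4 with the stricter filter (a level of 99.9) or with array medians centred, 5 with array weights, 5 with the replicate block and 5 at an adjusted p under 0.1. Over all probe sets the shares called were 0.729%, 11.7%, 4.38%, 5.54%, 5.93% and 8.61% at these settings, in the order no filter, stricter filter, centred medians, array weights, block and adjusted p under 0.1. It was 0 to 5 with one array left out: 5 without BAHD1 siRNA replicate 1, 1 without control replicate 1 (RARS1) or 2 (WARS1), and 0 without any of the others. VARS2 and WARS1 passed in each of the settings that gave 4 or 5, other than those that left out an array. With one variance prior the count was 0 and became 1 (PARS2) with the stricter filter, where 1147 of all 13876 probe sets were called. PARS2 passed that filter through its control arrays alone, so its call there lends no support in either fit. It is also among the 4 called with that filter in the intensity-trend fit. The count became 2 with the intensity-trend prior and was 0 to 0 with one array left out. The mitochondrial median of -0.10 became -0.13 with array medians centred and -0.12 to -0.058 with one array left out, the latter without BAHD1 siRNA replicate 3. The cytosolic median of -0.04 became 0.021 after cyclic loess, added after the data were seen, and lay between -0.085 and -0.027 when single arrays were dropped. Over all probe sets, the intensity-trend fit called 1221, and 398 with no filter and 177 to 1174 with one array left out (295, 279, 186 and 177 without control replicate 1 or 2, or BAHD1 siRNA replicate 2 or 3). No synthetase called in that fit changed direction under any setting run. Same-numbered samples share only a number. The cause of these changes in the counts was not tested. Dim probe sets are limited by signal over background, which is not known here.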
